A study of Homo sapiens with 6 samples.

Results

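The cyclin genes examined here are CCND1, CCND2 and CCND3 (D-type), CCNE1 and CCNE2 (E-type), CCNA2, CCNB1 and CCNB2 (A- and B-type), CCNF, and CCNG2. They were taken by gene symbol rather than by a cutoff on a measured value, though with earlier results of these data known. They make up 10 of the 26255 genes in the files. The cells were 22RV1, a human castration-resistant prostate cancer line. They were treated for 24 h either with 10 nM BCT (bruceantin, a plant-derived quassinoid) or with the vehicle DMSO, with 3 samples in each group, and both groups were grown in RPMI medium with fetal bovine serum. The study asked how BCT affects the transcriptome of these cells. Total RNA was sequenced, and each gene was deposited as an FPKM value, in which fragments are scaled to the length of the transcripts and to the number of mapped reads, so levels of different genes can be set side by side. A gene was tested if its mean over the 6 samples was at least 1 FPKM, which kept 12729 genes and 9 of the 10 cyclins. CCND2 was below that mean. Fold changes are BCT against DMSO on log2(FPKM + 0.1), a scale that makes changes of low genes look smaller than they are. A gene was called where limma gave a log2 fold change beyond 0.85 in either direction with an FDR below 0.05, after Benjamini-Hochberg adjustment over all tested genes.

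Cyclins are the regulatory subunits that switch on cyclin-dependent kinases (CDKs) in order through the cell cycle. D-type cyclins with CDK4 or CDK6 and E-type cyclins with CDK2 phosphorylate the retinoblastoma protein in G1 and at entry into S phase, cyclin A2 acts with CDK2 and CDK1 through S and G2, and cyclins B1 and B2 act with CDK1 in mitosis. Cyclin F is an F-box subunit of an SCF ubiquitin ligase and activates no known CDK, and cyclin G2 is an atypical cyclin that is known as a FOXO target and accompanies cell cycle arrest. Many cyclin genes are transcribed periodically, through E2F sites for genes of the G1/S transition and through CCAAT boxes and the cell cycle homology region (CHR) for genes of G2 and M.

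Promoter windows of 300 bases, from 250 bases before to 50 after the annotated start, were taken from the RefSeq table (GRCh38.p14) for 7 of the 10 cyclins. The windows of CCNA2, CCNB1, CCNB2 and CCNF are shown because these cyclins of S, G2 and M had different fold changes, as given further on, and because their starts carry the motif letters searched. Capitals mark the letters CCAAT, the CHR letters TTTGAA or TTCGAA, and CACGTG. All were searched on both strands, and in the CCNA2 window the CCAAT match lies on the other strand, where it reads as ATTGG. The windows are CCNA2 at chr4:121823834-121824133 (minus strand), CCNB1 at chr5:69166900-69167199 (plus strand), CCNB2 at chr15:59104896-59105195 (plus strand) and CCNF at chr16:2429197-2429496 (plus strand), each written 5′ to 3′ in the direction of the gene.
CCNA2: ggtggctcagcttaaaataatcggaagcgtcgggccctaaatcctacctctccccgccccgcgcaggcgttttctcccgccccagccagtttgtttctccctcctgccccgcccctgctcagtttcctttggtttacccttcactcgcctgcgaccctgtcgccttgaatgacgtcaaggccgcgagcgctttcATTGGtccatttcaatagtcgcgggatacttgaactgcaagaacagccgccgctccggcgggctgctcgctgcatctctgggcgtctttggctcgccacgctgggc
CCNB1: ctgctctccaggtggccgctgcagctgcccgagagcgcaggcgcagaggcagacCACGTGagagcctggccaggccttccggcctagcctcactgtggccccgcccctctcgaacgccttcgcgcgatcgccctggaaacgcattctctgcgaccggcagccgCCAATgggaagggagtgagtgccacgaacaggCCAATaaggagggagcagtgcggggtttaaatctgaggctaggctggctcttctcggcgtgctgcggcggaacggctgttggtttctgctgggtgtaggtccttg
CCNB2: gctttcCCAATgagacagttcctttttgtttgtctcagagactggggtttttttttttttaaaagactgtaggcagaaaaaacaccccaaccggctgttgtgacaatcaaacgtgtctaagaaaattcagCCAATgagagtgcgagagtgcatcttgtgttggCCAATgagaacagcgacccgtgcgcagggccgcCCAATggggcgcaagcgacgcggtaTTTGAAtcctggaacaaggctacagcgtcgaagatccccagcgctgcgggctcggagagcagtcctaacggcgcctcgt
CCNF: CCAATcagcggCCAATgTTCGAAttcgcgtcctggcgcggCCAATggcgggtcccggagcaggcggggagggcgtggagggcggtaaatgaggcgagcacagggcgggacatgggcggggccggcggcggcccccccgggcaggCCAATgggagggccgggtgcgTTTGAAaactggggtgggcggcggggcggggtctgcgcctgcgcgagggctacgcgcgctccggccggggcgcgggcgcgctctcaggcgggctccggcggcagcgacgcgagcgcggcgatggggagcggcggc

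Letters CCAAT occurred once in the CCNA2 window, 56 bases before the start, and at 2 places in the CCNB1 window, 87 and 55 bases before the start. The CCNB2 and CCNF windows each held 4 of them. Of all 35116 windows searched, which leave out chromosome 8, 34.6% held CCAAT at least once and 10.8% held 2 or more. The CHR letters TTTGAA or TTCGAA were found 29 bases before the start of CCNB2 and 233 and 85 bases before that of CCNF. Of all windows, 16.4% held them. Other spellings of the CHR were not searched, so whether the CCNA2 and CCNB1 windows hold a CHR was not settled. CCAAT and CHR letters stood together in 6.38% of all windows. The CCNB1 window also held CACGTG, 196 bases before the start, and the CCNG2 window held it 30 bases before the start, against 7.26% of all windows. CCND3 had 3 windows for different starts, with CCAAT in 2 of them and the FOXO letters GTAAACA, present in 3.42% of all windows, in the other. The E2F letters searched (TTTCCCGC, TTTGGCGC, TTTCGCGC and TTTGCCGC) were in none of the cyclin windows and in 3.31% of all windows, and the CCNE1 window held none of the letters searched. Other spellings of E2F sites were not searched, so whether the cyclin windows hold such a site was not settled. No window of CCND1, CCND2 or CCNE2 was searched. CCNE2 lies on the chromosome left out, so its absence does not show that RefSeq lacks a window for it. The matches describe letters in a window and no binding was measured.

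Depth was not measured and can be estimated only relative to DMSO replicate 1. The estimate is the inverse of the most common ratio of very low FPKM values, taken as single reads, an assumption that was not tested. It was 0.871 to 1 in the DMSO samples and 1.05 to 1.13 in the BCT samples. Sums of FPKM over all genes ran from 1169650 to 1572320 with DMSO and from 757534 to 799838 with BCT, and the small RNA gene MIR6087 alone took 43.5% to 55.3% and 31.7% to 32.5% of that sum. The prostate luminal markers KLK2, KLK3, HOXB13, KRT8, KRT18 and EPCAM were above 0 in every sample. Of these, KLK2 and KLK3 were called lower with BCT (log2 fold changes -1.61 and -2.95), KRT8 and KRT18 were called higher (1.17 and 1.72), and HOXB13 and EPCAM were not called. Their part in the cyclin results was not tested. All 3 of 3 basal markers (KRT5, KRT14 and TP63) were under 1 FPKM in every sample. Of 7 stromal, endothelial and immune markers, 6 were under 1 FPKM in every sample. Their summed level was 1.56 to 1.64 FPKM with DMSO and 5.18 to 6.55 FPKM with BCT, of which COL1A1 was 1.23 to 1.55 and 5.04 to 6.31 FPKM, and the part of such cells in the cyclin results was not tested. The labels do not say that the 3 samples of a group came from separate cultures, so p-values measure only the spread between these samples, which may be technical.

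Of the 9 cyclins tested, 6 were called lower in BCT-treated cells: CCND3, CCNE1, CCNE2, CCNA2, CCNF and CCNG2. Of all genes tested, 17.8% were called lower. None of the 9 was called higher, against 13.9% of all genes, so that 6 of 9 were called in either direction against 31.6%. CCNB1 and CCNB2 were lower at an FDR below 0.05 without reaching the fold threshold, which made 8 of 9 lower by the FDR alone, against 42.8% of all genes. With all samples scaled to equal FPKM sums, 3 of 9 were called lower, against 668 of all 12729 genes. By the FDR alone 4 of 9 were then lower, and the matching share of all genes was not counted. On the deposited scale, in the same 8 every BCT sample lay below every DMSO sample, which held for 44.3% of all genes. CCND1 was the exception, with overlapping groups. The median log2 fold change was -0.98 over the 9 cyclins and -0.04 over all tested genes. RNA came from bulk cultures, so fewer cells in a cycle phase and less cyclin RNA per cell cannot be told apart.

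**Figure D1:**
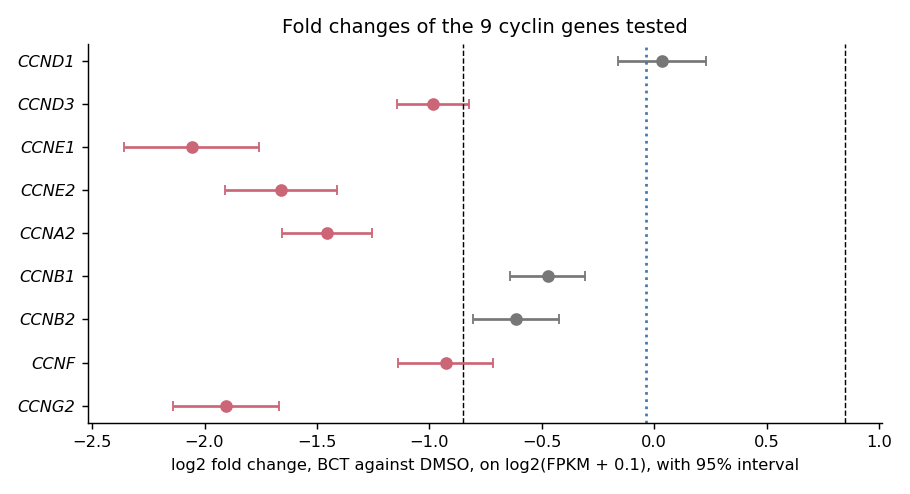
Log2 fold change of BCT against DMSO (x axis, on log2(FPKM + 0.1)) for the 9 cyclin genes tested, with the 95% interval from limma (n = 3 per group). Red points are called lower and grey points are not called. Dashed lines mark the fold threshold of 0.85 in each direction, and the dotted line is the median of all tested genes. CCNE1 and CCNG2 lie farthest to the left, CCNB1 and CCNB2 lie between the threshold and 0, and CCND1 lies at 0.03.

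CCND1, which encodes cyclin D1, was the most abundant of the 10 cyclins in every sample. It measured 870.6, 869.1 and 861.9 FPKM in DMSO replicates 1 to 3 and 1018.4, 795.2 and 864.9 FPKM in BCT replicates 1 to 3. The DMSO samples were within 9 FPKM of each other, and the BCT samples lay above, below and within them. The mean was 867.2 ± 4.63 FPKM with DMSO and 892.8 ± 114.2 FPKM with BCT (SD, n = 3), a log2 fold change of 0.03 (SE 0.086, 95% interval -0.16 to 0.23, limma adjusted p = 0.719). Without BCT replicate 1 the value was -0.06. Under 3 of 4 other scalings CCND1 was higher at an FDR below 0.05, none past the fold threshold. The log2 fold changes were 0.80 with equal FPKM sums, 0.42 with MIR6087 left out of those sums and 0.61 after quantile normalization. Their SEs were 0.13, 0.071 and 0.067 (limma adjusted p = 9.42e-10, 0.00039 and 5.47e-05). The smallest p came with the largest SE, so these p-values cannot be set against each other. The gene is on the plus strand at chr11:69455873-69469242 (hg19), with 5 exons in its canonical GENCODE transcript. Of its exonic bases, 10.4% also lie in exons of another gene.

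CCND3 (cyclin D3) measured 25.7, 26.6 and 25.6 FPKM in the DMSO samples and 14.2, 13.2 and 11.9 FPKM in the BCT samples. The groups were far apart relative to the spread within each. Its mean fell from 26.0 ± 0.525 to 13.1 ± 1.13 FPKM (SD, n = 3), to 50.5% of the DMSO level, with a log2 fold change of -0.98 (SE 0.069, 95% interval -1.14 to -0.83, limma adjusted p = 3.51e-06). The interval reaches inside the fold threshold, and in a limma test against that threshold itself the adjusted p was 0.188. The gene is on the minus strand at chr6:41902671-42016632 (hg19), and an FPKM per gene does not separate the 3 starts that RefSeq lists.

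CCND2 (cyclin D2) was near the bottom of the scale. It was listed at 0.024, 0 and 0.004 FPKM in the DMSO samples and measured 0.134, 0.224 and 0.271 FPKM in the BCT samples. All BCT samples were above all DMSO samples, yet none reached 0.3 FPKM. It was not tested at the 1 FPKM minimum. In a fit of 21543 genes without that minimum its log2 fold change was 1.48 (SE 0.19, limma adjusted p = 0.000378), which at these levels depends on the pseudocount of 0.1. The gene is at chr12:4357933-4414522 on the plus strand (hg19), and 13.8% of its exonic bases are shared with other genes. CCND2-AS1, on the opposite strand, was listed at 0 in all samples.

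The sum of the 3 D-type cyclins was 893 ± 4.89 FPKM with DMSO and 906 ± 115 FPKM with BCT (SD, n = 3). CCND1 made up 97.1% ± 0.0509 of it with DMSO and 98.5% ± 0.154 with BCT, while the share of CCND3 was 2.91% ± 0.0519 and 1.45% ± 0.15. All ratios here were taken after adding 0.1 FPKM to both genes, without which a ratio would not depend on how a sample was scaled. The CCND1/CCND3 ratio was 33.3 ± 0.604 with DMSO and 67.7 ± 6.70 with BCT. The difference was 1.02 on the log2 scale (SE 0.086), with all 3 BCT samples above all 3 DMSO samples. The exact two-sided permutation test gave p = 0.1, the smallest that 3 against 3 samples allow, and 0.1 after adjustment over the 7 ratios compared.

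CCNE1 and CCNE2 encode cyclins E1 and E2, which drive CDK2 at the start of S phase. CCNE1 measured 4.39, 4.87 and 4.50 FPKM in the DMSO samples and 1.15, 0.842 and 1.11 FPKM in the BCT samples. Its mean fell from 4.59 ± 0.248 to 1.03 ± 0.167 FPKM (SD, n = 3), a 4.44-fold lower level and a log2 fold change of -2.06 (SE 0.13, 95% interval -2.36 to -1.76, limma adjusted p = 2.27e-06). This was the lowest fold change of the 9 cyclins, and 2.43% of all tested genes had a lower one. The gene is at chr19:30302901-30315215 on the plus strand (hg19), has 12 exons in its canonical transcript and shares no exonic base with another gene.

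CCNE2 was the more abundant E-type gene. It measured 21.5, 20.5 and 18.3 FPKM in the DMSO samples and 7.37, 5.55 and 6.05 FPKM in the BCT samples. Every BCT sample was below every DMSO sample by more than 10 FPKM. The mean fell from 20.1 ± 1.63 to 6.32 ± 0.939 FPKM (SD, n = 3), with a log2 fold change of -1.66 (SE 0.11, 95% interval -1.91 to -1.41, limma adjusted p = 2.51e-06). The library kit did not mark strand, and 37.1% of the exonic bases of CCNE2 (minus strand) are shared with other genes, so reads there cannot be told apart. INTS8, an Integrator subunit gene on the plus strand that was deposited with the same interval as CCNE2 (chr8:95835518-95907482, hg19), measured 19.4 to 20.3 FPKM in the DMSO samples and 30.5 to 34.9 FPKM in the BCT samples. Its log2 fold change of 0.74 was not called and was opposite in sign to that of CCNE2.

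Both E-type genes together summed to 24.7 ± 1.65 FPKM with DMSO and 7.36 ± 1.08 FPKM with BCT (SD, n = 3). CCNE1 held 18.6% ± 1.47 of that sum with DMSO and 14.1% ± 1.26 with BCT. The CCNE1/CCNE2 ratio was 0.233 ± 0.022 and 0.177 ± 0.017, a difference of -0.40 on the log2 scale (SE 0.11), with groups that did not overlap and an exact two-sided permutation p of 0.1. Unlike the shares, this ratio holds the added 0.1 FPKM. With a pseudocount of 1 FPKM added to both genes the difference was 0.07 instead. At the low CCNE1 values the result therefore depends on the pseudocount.

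CCNA2, B-type and F-type cyclins are those of S phase, G2 and mitosis, and their promoter windows are those printed above. CCNA2 measured 74.0, 70.0 and 73.5 FPKM in the DMSO samples and 30.4, 24.9 and 24.1 FPKM in the BCT samples, with no overlap. Its mean fell from 72.5 ± 2.16 to 26.5 ± 3.43 FPKM (SD, n = 3), to 36.5% of the DMSO level. The log2 fold change was -1.46 (SE 0.087, 95% interval -1.66 to -1.26, limma adjusted p = 1.74e-06). The gene was deposited on the minus strand with the interval chr4:122722472-122745088 (hg19), which is also that of EXOSC9, an RNA exosome subunit gene on the plus strand. GENCODE places CCNA2 itself at chr4:122737599-122745038, where 9.24% of its exonic bases are shared with EXOSC9. EXOSC9 rose, with 34.5 to 36.9 FPKM in the DMSO samples and 67.4 to 77.4 FPKM in the BCT samples (log2 fold change 1.0, limma adjusted p = 2.10e-06).

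CCNB1 (cyclin B1) measured 118.5, 113.5 and 126.2 FPKM in the DMSO samples and 94.5, 83.9 and 80.0 FPKM in the BCT samples. All BCT samples were below all DMSO samples, by a smaller margin than in CCNA2. The mean was 119.4 ± 6.42 FPKM with DMSO and 86.1 ± 7.50 FPKM with BCT (SD, n = 3), or 72.1% of the DMSO level, with a log2 fold change of -0.47 (SE 0.072, 95% interval -0.64 to -0.31, limma adjusted p = 0.000317). CCNB1 lies at chr5:68462837-68474070 on the plus strand (hg19) with 9 exons and no exonic overlap.

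CCNB2 (cyclin B2) had a similar pattern, with 88.1, 81.4 and 93.0 FPKM in the DMSO samples and 62.9, 57.2 and 51.4 FPKM in the BCT samples. Here too the groups did not overlap. Its log2 fold change was -0.62 (SE 0.082, 95% interval -0.81 to -0.43, limma adjusted p = 0.000143), and its mean with BCT was 65.4% of that with DMSO. Neither interval reaches the fold threshold of 0.85. CCNB2 is at chr15:59397284-59417244 on the plus strand (hg19), also with 9 exons and no exonic overlap. CCNB1 made up 57.7% ± 0.457 of the summed B-type level with DMSO and 60.1% ± 0.729 with BCT (SD, n = 3).

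CCNF (cyclin F) measured 17.3, 17.9 and 18.9 FPKM in the DMSO samples and 10.5, 9.75 and 8.18 FPKM in the BCT samples. The groups did not overlap, and the BCT samples were spread more widely than the DMSO samples. The mean fell from 18.0 ± 0.803 to 9.47 ± 1.18 FPKM (SD, n = 3), with a log2 fold change of -0.93 (SE 0.092, 95% interval -1.14 to -0.72, limma adjusted p = 2.23e-05). This call lies close to the threshold. Without BCT replicate 3 the log2 fold change was -0.83 and the call was lost, and the limma test against the threshold itself gave an adjusted p of 0.748. CCNF is at chr16:2479395-2508859 on the plus strand (hg19) with 17 exons, and 11.8% of its exonic bases are shared with other genes.

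CCNG2 (cyclin G2) measured 5.93, 4.80 and 5.78 FPKM in the DMSO samples and 1.42, 1.37 and 1.38 FPKM in the BCT samples. The BCT samples differed by less than 0.1 FPKM. The mean fell from 5.50 ± 0.612 to 1.39 ± 0.0223 FPKM (SD, n = 3), a 3.96-fold lower level, with a log2 fold change of -1.91 (SE 0.10, 95% interval -2.14 to -1.67, limma adjusted p = 1.25e-06). Of all tested genes, 3.28% had a lower fold change. The gene is at chr4:78078357-78091213 on the plus strand (hg19) and shares no exonic base with another gene. CCNG2 and CCNE1 had the lowest fold changes of the 9 cyclins, and their 95% intervals overlap.

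**Figure D2:**
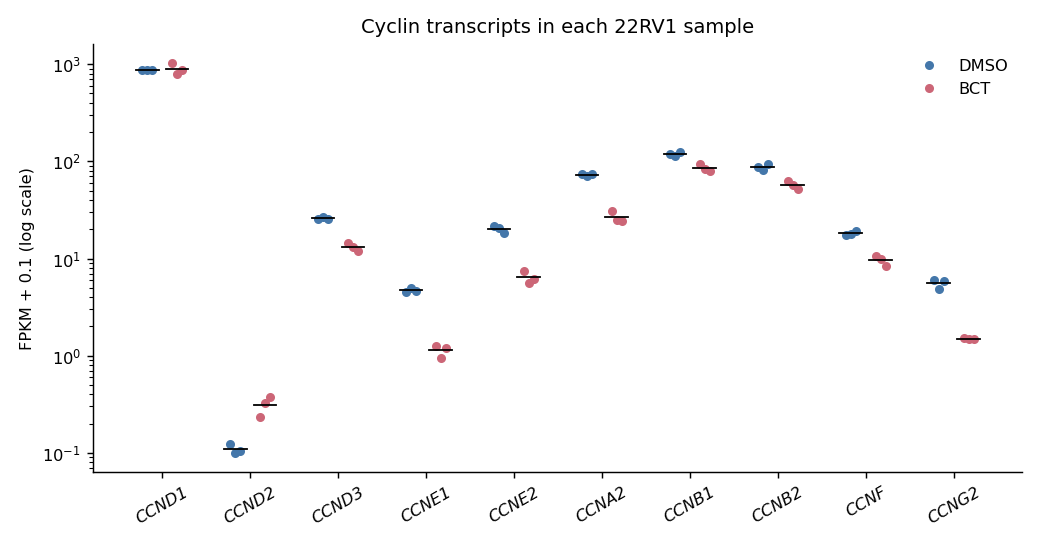
FPKM + 0.1 (y axis, log scale) of the 10 cyclin genes in each of the 3 DMSO samples (blue) and 3 BCT samples (red), in replicate order from left to right, with a bar at each group mean. CCND1 is the highest in both groups with overlapping points, CCND2 stays under 0.3 FPKM, and in the 8 other genes all BCT points are below all DMSO points.

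By level, the order with DMSO was CCND1, CCNB1, CCNB2, CCNA2, CCND3, CCNE2, CCNF, CCNG2, CCNE1 and CCND2. The mean of CCND1 was 7.26 times that of CCNB1. Among neighbours in this order, the samples of CCNE2 overlapped those of CCNF, and the samples of CCNG2 overlapped those of CCNE1. With BCT the order was the same except that CCNF stood above CCNE2, and the mean of CCND1 was 10.4 times that of CCNB1. All 10 together summed to 1221 ± 10.6 FPKM with DMSO and 1094 ± 130 FPKM with BCT (SD, n = 3). Of that sum CCND1 took 71.0% ± 0.851 with DMSO and 81.5% ± 1.22 with BCT, and CCNA2 took 5.94% ± 0.128 and 2.42% ± 0.109. BCT replicate 1 was the highest of the 3 BCT samples in 9 of the 10 genes, with CCND2 as the exception.

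Ratios between cyclins within a sample showed unequal changes across the cycle. The CCNA2/CCNB1 ratio was 0.608 ± 0.023 with DMSO and 0.308 ± 0.013 with BCT (SD, n = 3), a difference of -0.98 on the log2 scale (SE 0.047). The CCNB1/CCNB2 ratio moved far less, from 1.37 ± 0.026 to 1.51 ± 0.046, a difference of 0.14 (SE 0.030). CCNE1/CCNA2 differed by -0.60 (SE 0.14), CCNB1/CCND1 by -0.51 (SE 0.079) and CCND3/CCNB1 by -0.51 (SE 0.064). In each of the 7 ratios, the 2 D-type and E-type pairs given above included, all BCT samples lay on 1 side of all DMSO samples. How often this holds for ratios of other gene pairs was not counted, and the 7 ratios share genes, so they are not independent. The exact two-sided permutation p was 0.1 in each and 0.1 after adjustment over the 7, so that none could pass 0.05. With a pseudocount of 1 FPKM the CCNE1/CCNA2 difference shrank to -0.03.

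**Figure D3:**
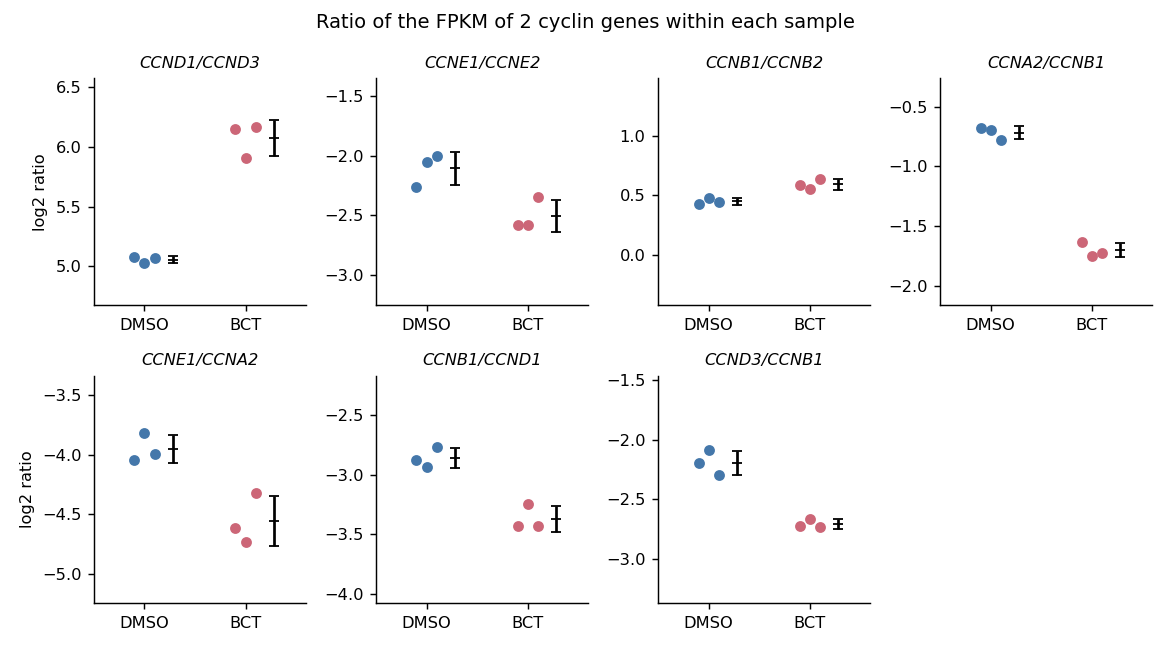
Log2 ratio of the FPKM + 0.1 of 2 cyclin genes within each sample (y axis) for the 7 ratios compared. DMSO samples are in blue and BCT samples in red, with the mean ± SD beside each group (n = 3). All panels span the same number of log2 units. The groups do not overlap in any panel, and the shift is widest for CCND1/CCND3 (1.02) and CCNA2/CCNB1 (-0.98) and narrowest for CCNB1/CCNB2 (0.14).

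Over the 6 samples, the log2 values of the 8 lower cyclins had Pearson correlations with each other of 0.938 (CCNE1 with CCNB2) to 0.996. CCND1 had correlations of -0.149 to 0.069 with them. These are descriptions over 6 samples of 2 groups, and a shared difference between the groups alone raises such values. The 3 genes most like CCNA2 by the same measure were LOC143666, LRRC20 and UBE2T, with log2 fold changes of -1.34, -3.05 and -1.83. Those most like CCNG2 were CUTA, HMGN1 and GNG7, with log2 fold changes of -1.16, -0.51 and -2.15. Correlations above 0.98 were reached by 3084 genes with CCNA2 and by 2177 genes with CCNG2.

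The fold changes moved with the scaling of the samples. When all samples were scaled to equal FPKM sums, which MIR6087 dominates, the median of all genes was 0.72, the values of CCNB1 and CCNB2 were 0.29 and 0.15, above 0 but with limma adjusted p of 0.0801 and 0.387, and 3 cyclins (CCNE1, CCNE2 and CCNG2) were called lower. With MIR6087 left out of the sums the median of all genes was 0.34, CCNB1 and CCNB2 were at -0.09 and -0.23, and 4 cyclins were called lower. Of all calls, 56.2% were lower as deposited, 10.6% with equal sums and 26.4% with equal sums without MIR6087. The median of all genes was 0.03 after quantile normalization, where CCND1 was at 0.61.

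**Figure D4:**
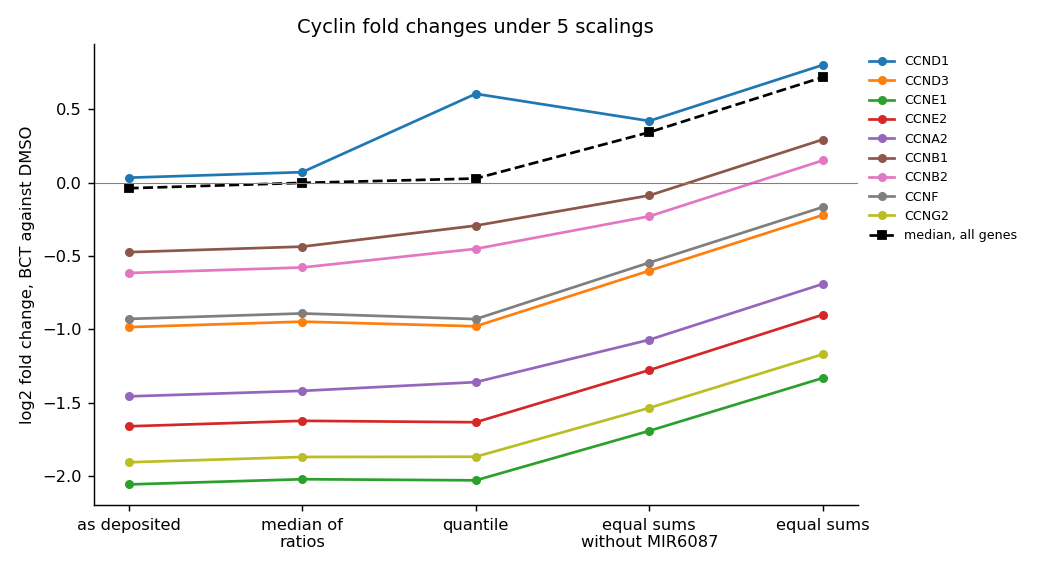
Log2 fold change of the 9 cyclin genes tested (y axis) under 5 scalings of the samples (x axis), with the median of all tested genes as a dashed black line. Scaling to equal sums raises all 9 genes shown, and CCNB1 and CCNB2 are then above 0 and below the median of all genes. CCND1 also stands higher after quantile normalization (0.61), where CCND3 and CCNF differ little from their deposited values.

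Among 93 other genes of the cyclin pathway, 88 were tested, and 20 were called lower and 10 higher. The background was the 17.8% lower and 13.9% higher of all tested genes, and the median over the 88 was -0.19. Of 4 partner kinases 3 were called lower, led by CDK2, the partner of cyclins E and A, which fell from 128.2 ± 5.06 to 32.1 ± 4.4 FPKM (SD, n = 3; log2 fold change -2.00, SE 0.092). Of 7 CDK inhibitors 3 were called higher and 3 lower. CDKN1A, which encodes p21, rose from 49.3 ± 2.03 to 181.0 ± 18.9 FPKM (log2 fold change 1.87, SE 0.077), and CDKN2C, an inhibitor of CDK4 and CDK6, fell from 42.9 ± 4.58 to 10.7 ± 1.48 FPKM (log2 fold change -2.00, SE 0.11). Of 7 genes for CDK activation and inhibitory phosphorylation 1 was called higher and 1 lower, shares near those of all genes. CDK7, the kinase of the CDK-activating complex, had a log2 fold change of 0.89. PKMYT1, a kinase that inhibits CDK1, had -1.09. By the FDR alone 5 of the 7 were lower, against 42.8% of all genes, and 2 were higher, for which the share of all genes was not counted.

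Upstream of the cyclins, 5 of 13 E2F and pocket protein genes were called lower and none higher, and their median was -0.72. The background for each list here was the 17.8% called lower and 13.9% called higher of all genes. E2F1, an activator of G1/S genes that include CCNE1, fell from 49.7 ± 0.971 to 11.8 ± 1.61 FPKM (SD, n = 3; log2 fold change -2.08). In the group of MuvB, B-MYB and FOXM1 genes, whose products act at CHR promoters of G2 and M genes, 4 of 8 were lower and 1 higher. RBBP4 had the largest fall (log2 fold change -1.45) and LIN37, a MuvB subunit, was the gene that rose (1.29). Of 3 FOXO genes, FOXO1 rose from 1.63 ± 0.0567 to 4.32 ± 0.510 FPKM (log2 fold change 1.35) and FOXO4 fell (-0.90), beside the fall of CCNG2. FOXO3 was higher (log2 fold change 0.71, limma adjusted p = 5.98e-05) without reaching the fold threshold. A link of these genes to CCNG2 was not tested.

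Of 11 SCF and D-type ligase genes for cyclin turnover 2 were called lower and 2 higher, shares near those of all genes (17.8% and 13.9%), with SKP2, an F-box protein of S phase, falling from 31.4 ± 1.16 to 8.95 ± 1.47 FPKM (SD, n = 3; log2 fold change -1.81) and AMBRA1, an adaptor for the degradation of D-type cyclins, rising by 0.99. Of 17 genes of the APC/C, the ligase that degrades cyclins A and B, 1 was called, higher (ANAPC10, log2 fold change 1.31). Their median was -0.13. Among 23 other cyclin and cyclin-related genes 18 were tested, with 1 lower, 1 higher and a median of 0.27. CCNL1, a cyclin of the splicing machinery, rose from 11.3 ± 0.415 to 35.0 ± 5.06 FPKM (log2 fold change 1.61), and CABLES2, which encodes a cyclin-like protein that binds CDKs, fell from 10.2 ± 0.348 to 2.65 ± 0.519 FPKM (log2 fold change -1.92). Scaled to equal sums, the 88 genes gave 6 lower and 33 higher, against 668 lower and 5614 higher of all 12729 genes. The counts of the lists therefore depend on the scaling.

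**Figure D5:**
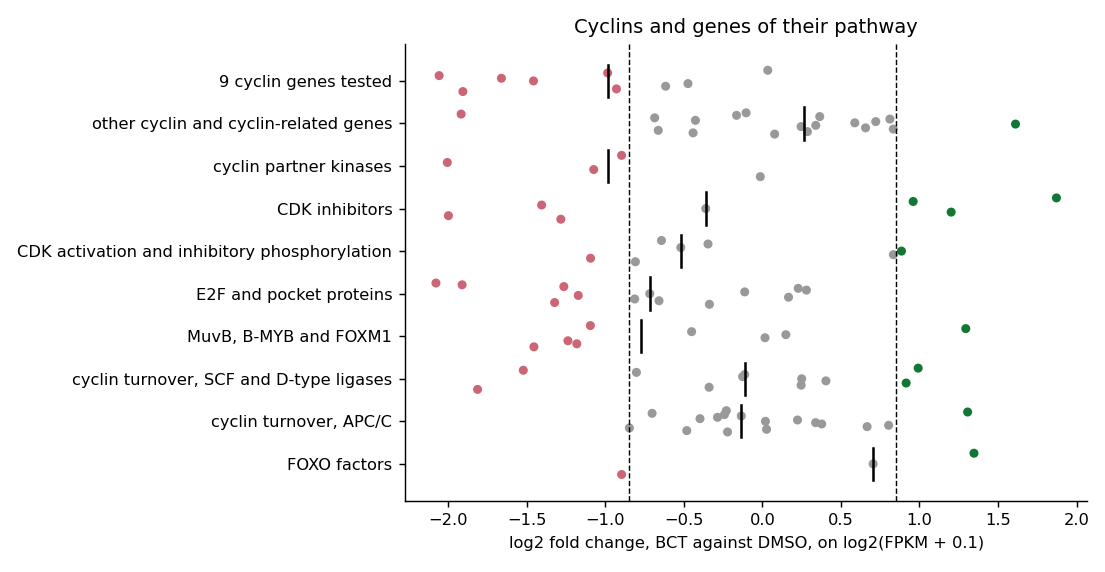
Log2 fold change of BCT against DMSO (x axis) for the 9 cyclins tested and for the tested genes of 9 pathway lists (rows). Red points are called lower, green points called higher and grey points not called, a black bar marks each median, and dashed lines mark the fold threshold of 0.85. The cyclins and the partner kinases share a median of -0.98, the APC/C genes center on -0.13, and CDK inhibitors lie at both ends.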

How the data were processed

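RNA-seq of 22RV1 cells gave 1 file for each of 3 DMSO and 3 BCT samples. The authors trimmed reads (Trimmomatic 0.38), mapped them to hg19/GRCh37 (HISAT2), assembled the mapped reads (StringTie) and deposited gene levels as FPKM. The submitters' processing notes also name HTSeq and CASAVA without a role, and the tool that computed the FPKM is not given in the sources used here. The gene annotation and the gene-level test are not given in the sources used here. FPKM holds no counts, so the read depth of each gene is unknown and no count test was run. Groups came from the sample labels. A marker gene that was also examined is not reported here.

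Deposited values were not rescaled. Genes averaging 1 FPKM or more were fitted on log2(FPKM + 0.1) by limma 3.58.1 under R 4.3.3, using eBayes with trend and Benjamini-Hochberg adjustment. Calls needed a log2 fold change beyond 0.85 in either direction and an FDR below 0.05, as in the study's results text. Its methods give an FDR of 0.01. The steps were tested on simulated data. Ratios of 2 genes, with 0.1 FPKM added to each, were compared with an exact two-sided permutation test. Positions are those deposited, with 1 added to the start. Exons and their overlaps came from GENCODE lifted to GRCh37. Beside the cyclins, the text names from each pathway list the called gene with the largest rise and fall, and the 3 genes whose values correlated best with CCNA2 and CCNG2. Overlapping neighbours, FOXO3 and MIR6087 lie outside this rule, since they were chosen with their values seen. The cyclins and the lists were chosen with earlier results of these data known. Alternatives covered the pseudocount, the filter, 4 further scalings, the FDR, the variance trend, a test against the fold threshold, the replicate block and each sample left out.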

Additional observations from a re-analysis of the deposited data

How the results depend on the processing

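Of 160 fold changes of the 9 cyclins under the alternatives, 149 kept their direction and their call, which needs both thresholds, 8 lost the call and 3 changed sign. By the FDR alone, 8 cyclins were lower as deposited, 4 with equal FPKM sums, where CCND1 was higher, and 7 without MIR6087 in the sums, where CCNB1 (adjusted p = 0.192, limma) was lost. The sign changed for CCND1, at -0.064 without BCT replicate 1 (range -0.06 to 0.11 with each sample left out), and with equal FPKM sums for CCNB1 (0.29) and CCNB2 (0.15). The 6 cyclins called lower were 3 with equal FPKM sums, 4 with equal sums without MIR6087, 4 in the test against the fold threshold (CCND3 and CCNF lost) and 4 under a filter of 5 FPKM on the mean, where CCNE1 and CCNG2 were not tested. Leaving out each sample gave 5 to 6. No cyclin was called higher except with no filter on low values, where CCND2 made it 1, and leaving out each sample gave 0. For the pathway genes, 20 lower and 10 higher became 6 and 33 with equal sums and 13 and 19 without MIR6087 in the sums, and 19 to 22 and 9 to 13 with each sample left out. Over all genes, 2263 lower and 1764 higher became 668 and 5614 with equal sums, 1208 and 3370 without MIR6087 in the sums, and 1392 and 1033 in the test against the threshold. Calls of higher genes were 2657 with no filter and 1150 with that of 5 FPKM.

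With a pseudocount of 1 the log2 difference of CCNE1/CCNE2 became 0.072 and that of CCNE1/CCNA2 -0.034. With each sample left out the differences ranged from 0.97 to 1.10 for CCND1/CCND3, -0.48 to -0.34 for CCNE1/CCNE2, 0.12 to 0.16 for CCNB1/CCNB2, -1.02 to -0.96 for CCNA2/CCNB1, -0.72 to -0.51 for CCNE1/CCNA2, -0.57 to -0.46 for CCNB1/CCND1 and -0.56 to -0.46 for CCND3/CCNB1. The cause of these changes was not tested.

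Samples of both groups carry numbers 1 to 3. Deviations from the group means correlated at 0.116, 0.033 and 0.034 between samples of the same number and -0.115 to 0.074 between others, and not every sample correlated best with its own number, so the numbers were not taken as pairs. With the replicate block 6 cyclins were called lower, 20 and 10 pathway genes were called lower and higher, and 2266 and 1767 of all genes. The FPKM values hold no counts, which leaves the precision of CCND2 and of CCNE1 and CCNG2 with BCT unknown.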
